A study of Mus with 4 samples.

Results

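The major urinary protein genes Mup2, Mup9, Mup19 and Mup22 were followed across tumors that differed in a hairpin against Nrf3 and in the diet of the host. They are 4 of the 19505 genes that the array annotation names, and they were picked by symbol with their large differences between these arrays already known. Their levels and differences are therefore given as a description, with no test. The tumors were subcutaneous flank grafts of Renca cells, a mouse renal adenocarcinoma line, in male BALB/cCrSlc mice that were bought at 4 to 6 weeks of age and then fed for 17 weeks. Tumors were taken 2 weeks after injection. There were 4 groups with 1 Affymetrix array each: shNrf3-HFD (cells with a hairpin against Nrf3, hosts on high-fat diet HFD-60), shCtrl-HFD (control hairpin, the same diet), shNrf3-NC (hairpin against Nrf3, hosts on normal chow CE-2) and shCtrl-NC (control hairpin, normal chow). All cells carried a stably expressed hairpin. The labels do not say how many tumors an array holds, whether the lines are single clones, or which hairpin sequences were used. Only the tumor cells carried the hairpin, while the diet acted on the whole host, and the RNA is of the whole tumor.

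Major urinary proteins are small lipocalins, barrel-shaped carriers that bind volatile pheromones in mouse urine. In male mice they are made chiefly by hepatocytes under growth hormone and androgens, and members of the family are also made in salivary, lacrimal and mammary glands. The circulating protein MUP1 is known from mice as a regulator of glucose metabolism, and its liver expression is known to be low in obese and diabetic mouse models. The genes are close copies of one another. In RefSeq's gene table for mouse assembly GRCm38.p6, used here only for names and order, 22 protein-coding Mup symbols follow one another with 22 Mup-ps symbols between them and 0 other protein-coding genes. The array annotation names 9 of the 22. Mup2, Mup9, Mup22 and Mup19 stand at places 4, 6, 11 and 18 in that order, so the members are spread along the cluster rather than adjacent. Each has 1 probe set, and near-identical copies can bind the same probes, so the 4 readings are 1 family signal rather than 4 independent ones.

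Values are RMA levels on the log2 scale, where a difference of 1 is 2-fold. Arrays give no read depth, and precision is limited by their number. The negative control rows show where readings without a target lie: their medians were 5.35 to 5.39 and their 95th percentiles 8.97 to 9.35. The targeted gene does not bear out the labels in both diets. Nfe2l3, which encodes Nrf3, read 6.05 in shNrf3-HFD and 5.77 in shCtrl-HFD, against its label, and 5.57 in shNrf3-NC and 6.22 in shCtrl-NC. All 4 readings were below the 95th percentile of the controls. Each group is therefore the tumor labelled so, and every direction below rests on those labels.

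All 4 members were near the control rows in the tumor labelled shNrf3-HFD and above the 95th percentile of the controls in the other 3. Mup22 read 7.75 in shNrf3-HFD, 13.68 in shCtrl-HFD, 18.53 in shNrf3-NC and 16.36 in shCtrl-NC. Mup19 read 8.05 in shNrf3-HFD, 13.66 in shCtrl-HFD, 18.44 in shNrf3-NC and 16.33 in shCtrl-NC. These 2 probe sets gave nearly the same level on every array. Mup9 read 7.17 in shNrf3-HFD, 12.53 in shCtrl-HFD, 17.58 in shNrf3-NC and 16.08 in shCtrl-NC. Mup2 read 5.95 in shNrf3-HFD, 11.80 in shCtrl-HFD, 16.73 in shNrf3-NC and 14.09 in shCtrl-NC. For each member the order was thus the same, with the tumor labelled shNrf3 lowest on high-fat diet and highest on normal chow. The range over the 4 arrays was 10.39 (Mup19) to 10.78 (Mup22 and Mup2). On the shNrf3-HFD array all 4 readings lay above the control median (5.39) and below the control 95th percentile (9.13), so the genes were not well above background there. On the other arrays all lay above the 95th percentile, and none reached the highest value of the table, 19.93. In RNA of whole tumors, fewer cells of a type and less RNA per cell cannot be told apart.

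**Figure D1:**
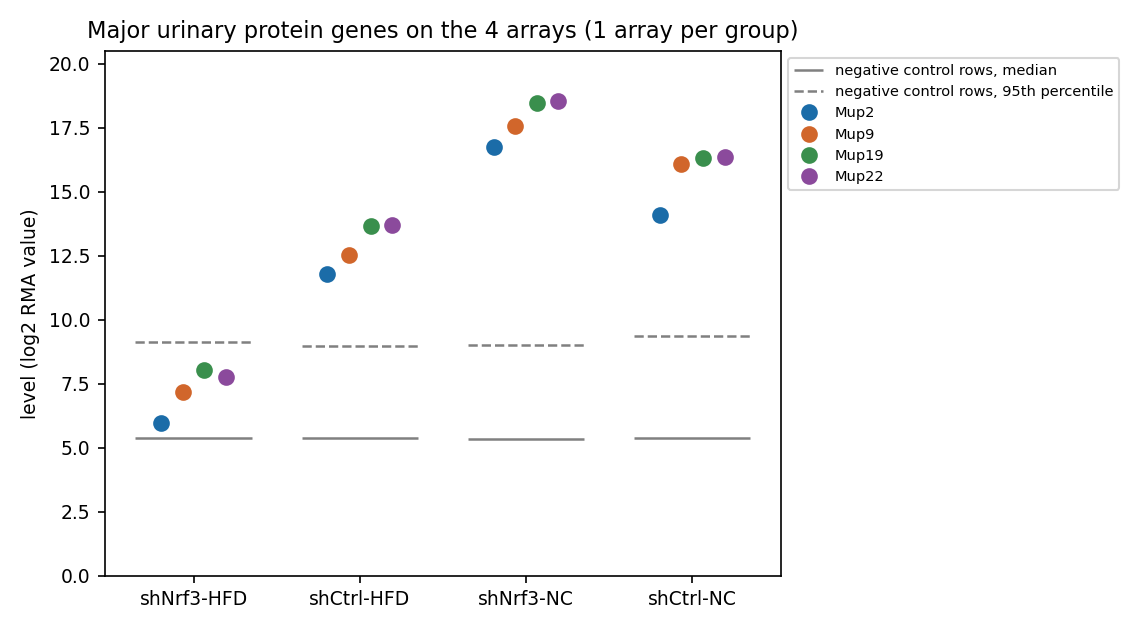
Levels of Mup2, Mup9, Mup19 and Mup22 (log2 RMA values, vertical axis) on the 4 arrays, 1 array per group; each point is 1 probe set, solid and dashed bars mark the median and 95th percentile of that array's negative controls. The points lie between 5.95 and 8.05 in shNrf3-HFD and between 16.73 and 18.53 in shNrf3-NC.

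The knockdown difference had opposite signs in the 2 diets. On high-fat diet the shNrf3 minus shCtrl difference was -5.93 for Mup22, -5.85 for Mup2, -5.61 for Mup19 and -5.36 for Mup9, with a median of -5.73. Since the shNrf3-HFD readings were not well above background, these are better given as bounds: setting such readings to the 95th percentile of the controls, levels in shNrf3-HFD were at least 23.3-fold lower for Mup22, 23.0-fold for Mup19, 10.6-fold for Mup9 and 6.35-fold for Mup2 than in shCtrl-HFD. On normal chow the shNrf3 minus shCtrl difference was 2.64 for Mup2, 2.17 for Mup22, 2.12 for Mup19 and 1.5 for Mup9, with a median of 2.14. As both normal chow arrays were far above the controls, these are folds of 6.23, 4.50, 4.34 and 2.82. Subtracting the normal chow value from the high-fat value of each gene gave -8.49 (Mup2) to -6.86 (Mup9). With shNrf3-HFD readings set to the 95th percentile of the controls these values were -6.71 for Mup22, -6.64 for Mup19, -5.30 for Mup2 and -4.90 for Mup9, so the order of the members in size rests on readings near background. With 1 array per group this has no replicate check and was not tested.

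Between diets, the members were lower in HFD with either hairpin. In the tumors labelled shNrf3 the HFD minus NC difference ran from -10.78 (Mup22 and Mup2) to -10.39 (Mup19), with a median of -10.59. Against the 95th percentile of the controls, levels in shNrf3-HFD were at least 676-fold lower than in shNrf3-NC for Mup22, 635-fold for Mup19, 349-fold for Mup9 and 193-fold for Mup2. With the control hairpin the difference was -3.55 for Mup9, -2.69 for Mup22, -2.67 for Mup19 and -2.29 for Mup2, with a median of -2.68. These are folds of 11.7, 6.44, 6.36 and 4.89. Mup9 thus stood apart from the other members in the comparisons that involve shCtrl-NC: its knockdown difference there was the smallest and its diet difference the largest of the 4. Centred on each gene's own mean, the 4 members lay within 0.26 of one another on the shNrf3-HFD array and within 0.80 on the shCtrl-NC array.

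In the direction of the members, 3.9% to 13.3% of filtered genes differed by 2-fold or more, depending on the comparison. That direction was the more frequent except for diet with the control hairpin. Of 10021 genes with a mean level of 5.73 or more (the median of the row means), a minimum the members passed through their readings on the other 3 arrays, 7.13% were 2-fold or more lower in shNrf3-HFD than in shCtrl-HFD (2.55% were higher), and the 4 members held the 4 lowest places. Krt10, a keratin of differentiated epidermis, came next at -4.79. Its shNrf3-HFD reading (4.72) was below the control median, and against the control 95th percentile it was at least 1.29-fold lower there. In NC 13.3% were 2-fold or more higher with shNrf3 and 4.52% lower, and the members stood among them with no leading place. In the diet comparison 5.03% were 2-fold or more lower in HFD in tumors labelled shNrf3 and 1.87% higher. The members were again the 4 lowest and skeletal muscle actin, Acta1, followed at -7.79. Acta1 in shNrf3-HFD (4.73) was also below the control median, and against the control 95th percentile it was at least 10.4-fold lower there. With the control hairpin 3.9% were lower (14.6% were higher), and Mup9 was lowest and Mup22, Mup19 and Mup2 held places 4, 7 and 15. Since the members were chosen from such ranks, these places describe them and support nothing. The median difference over the filtered genes was -0.14 and 0.14 for knockdown in HFD and in NC, and -0.03 and 0.26 for diet with shNrf3 and with shCtrl. Higher and lower counts moved with the scaling: 1468 higher and 391 lower for diet with shCtrl (928 and 578 after cyclic loess, 973 and 608 after quantile normalization), 256 and 714 for knockdown in HFD (315 and 542 after loess, 304 and 530 after quantile normalization), and 1334 and 453 for knockdown in NC (1083 and 662 after quantile normalization).

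**Figure D2:**
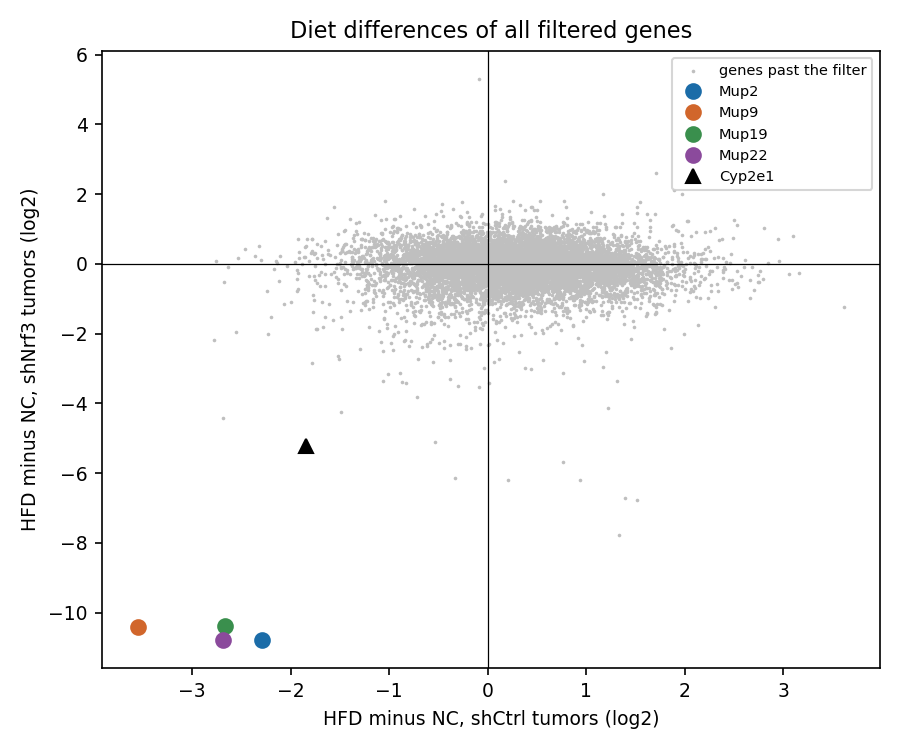
HFD minus NC differences (log2) in tumors labelled shNrf3 (vertical axis) against those in shCtrl tumors (horizontal axis) for the 10021 genes past the filter, in grey, with the 4 members as coloured points and Cyp2e1 as a triangle. The members lie at -10.78 to -10.39 on the vertical axis and -3.55 to -2.29 on the horizontal axis, away from the other genes.

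The 5 other Mup symbols of the annotation read low on all 4 arrays, none of them above the 95th percentile of the controls. Mup3 read 2.07 in shNrf3-HFD, 4.28 in shCtrl-HFD, 8.49 in shNrf3-NC and 6.27 in shCtrl-NC. Mup5 read 2.71 in shNrf3-HFD, 3.96 in shCtrl-HFD, 6.98 in shNrf3-NC and 6.19 in shCtrl-NC. Both had the order of arrays of the members, at levels inside the range of the negative control rows and below their median on both HFD arrays. Mup6 read 5.61 in shNrf3-HFD, 5.45 in shCtrl-HFD, 6.45 in shNrf3-NC and 6.40 in shCtrl-NC. Mup20, which encodes darcin, a pheromone of male urine that attracts females, read 6.21 in shNrf3-HFD, 5.63 in shCtrl-HFD, 6.83 in shNrf3-NC and 6.10 in shCtrl-NC. Mup21 read 3.56 in shNrf3-HFD, 3.27 in shCtrl-HFD, 5.06 in shNrf3-NC and 5.33 in shCtrl-NC, below the control median on every array. These 3 differed by less than 1 between hairpins in either diet.

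Rows that the annotation leaves unnamed held the same pattern. When each of the 22206 transcript rows was centred on its own mean and compared with the mean of the 4 members by Euclidean distance, the 4 members lay within 0.56. They are part of that mean, so this closeness is partly built in. Among the 2634 unnamed rows 5 lay at distances of 0.41 to 1.30, and the nearest of them was closer than the farthest member. Their levels were 5.89 to 8.32 in shNrf3-HFD, 10.84 to 13.55 in shCtrl-HFD, 14.99 to 18.21 in shNrf3-NC and 13.31 to 17.80 in shCtrl-NC. All 5 had the order of the members, with knockdown differences of -5.99 to -4.89 in HFD and 0.41 to 2.60 in NC. A further unnamed row followed at 3.39, and the nearest named gene past the filter outside the family lay at 4.10. No gene is assigned to these rows here.

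**Figure D3:**
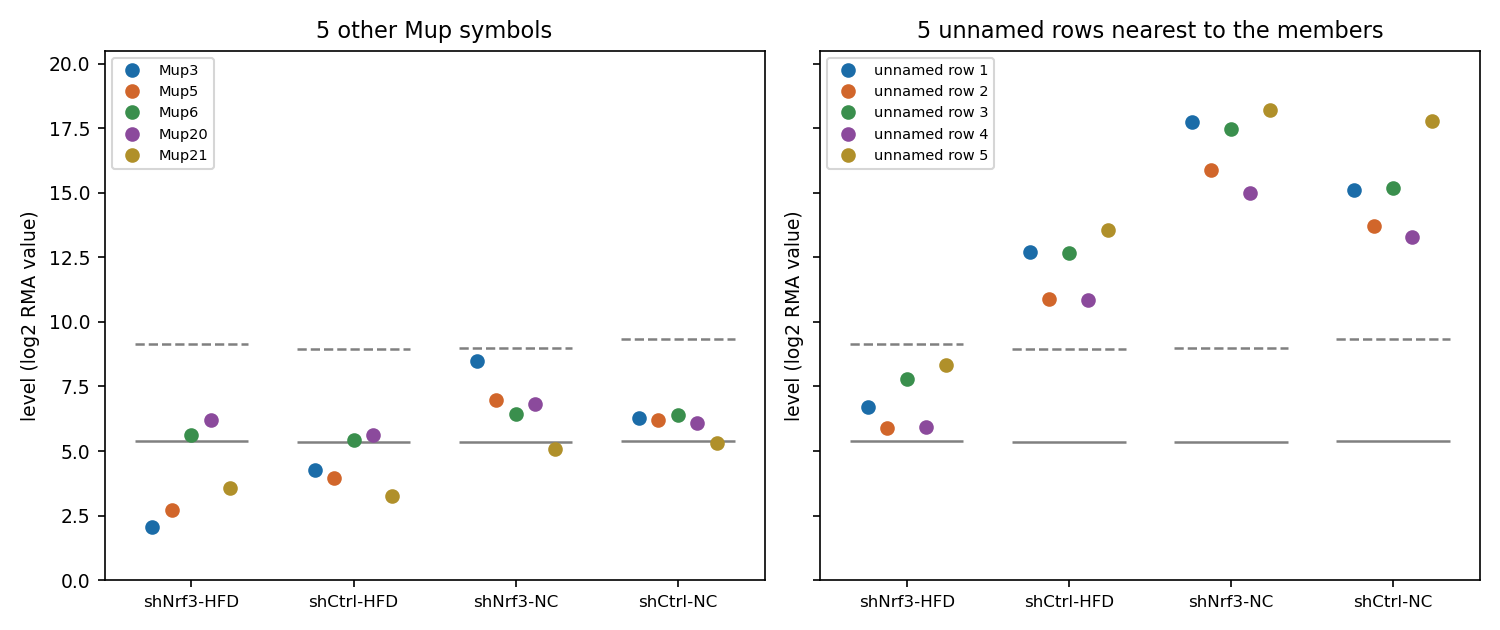
Levels (log2 RMA values, vertical axes) on the 4 arrays of the 5 other Mup symbols (left panel) and of the 5 unnamed rows nearest to the members (right panel); solid and dashed bars mark the median and 95th percentile of each array's negative controls. The left panel stays at or below 8.49, while the unnamed rows lie between 14.99 and 18.21 in shNrf3-NC and between 5.89 and 8.32 in shNrf3-HFD.

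Most liver marker genes read at background on all 4 arrays. Of 36 hepatocyte genes listed, 32 were measured, and 22 of them read below the control median on every array. Among these were albumin (Alb, 4.95 in shNrf3-HFD, 5.23 in shCtrl-HFD, 4.65 in shNrf3-NC and 5.31 in shCtrl-NC), apolipoprotein A-I (Apoa1, 3.18 to 3.71), transthyretin (Ttr, 4.32 to 5.21) and the urea cycle enzyme Cps1 (3.07 to 3.45). Above the 95th percentile of the controls on every array were 2, haptoglobin (Hp) and transferrin (Trf), both also made outside the liver. The summed signal of the list was 14.66 in shNrf3-HFD, 15.03 in shCtrl-HFD, 16.25 in shNrf3-NC and 14.50 in shCtrl-NC on the log2 scale, most of it from Hp, which read 14.28 in shNrf3-HFD, 14.79 in shCtrl-HFD, 16.04 in shNrf3-NC and 14.16 in shCtrl-NC. The list's median difference was 0.03 for knockdown in HFD (-0.10 after loess) and -0.22 in NC, and -0.19 and -0.40 for diet with shNrf3 and shCtrl, beside medians over all 19505 named genes of -0.003, -0.03, 0.03 and 0.02. For knockdown in HFD 5 members of the list were higher by 1.5-fold or more and 3 lower (15.4% and 15.7% of all named genes were). For knockdown in NC 5 were higher and 8 lower (18.8% and 18.9% were). For diet with shNrf3 4 were higher and 10 lower (13.3% and 12.7% were), and with shCtrl 1 was higher and 10 lower (20.9% and 19.2% were). Restricted to the 5 list genes past the filter the medians were 0.15, 1.24, -1.16 and -0.62, so in NC the sign depended on that restriction. A gene passes the filter through the arrays where it is high, so such medians, here and below, support nothing.

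Among the hepatocyte genes past the filter, Cyp2e1 had the order of arrays of the Mup genes. It encodes a cytochrome P450 that oxidises ethanol and acetone, and in rodent liver it is known to be induced by fasting and obesity. It read 4.89 in shNrf3-HFD, 6.98 in shCtrl-HFD, 10.11 in shNrf3-NC and 8.82 in shCtrl-NC, with only the shNrf3-NC reading above the 95th percentile of its controls. Itih4, an acute phase gene of liver, had nearly level readings in HFD at background (3.87 in shNrf3-HFD and 3.90 in shCtrl-HFD). It read 7.23 in shNrf3-NC, below the 95th percentile of the controls, and 4.90 in shCtrl-NC, below their median. Vtn, past the filter but without the order of the members, read 5.28 in shNrf3-HFD, 5.13 in shCtrl-HFD, 6.44 in shNrf3-NC and 7.20 in shCtrl-NC. All 4 Vtn readings were below the 95th percentile. Of the 10021 filtered genes 265 (2.64%) had the order of arrays of the members. With every step in it 2-fold or more there were 5 (0.0499%), the 4 members and Cyp2e1. Cyclic loess and centring of the arrays left the same 5, and quantile normalization left 4, without Mup9. The condition was built from the members' own pattern, so their place in it is no finding.

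Genes that define salivary, lacrimal, mammary, sebaceous and preputial glands, renal tubule and pancreatic acinus were also mostly low. Of these tissues, the salivary, lacrimal and mammary glands are named above as makers of major urinary proteins. Of 16 measured salivary and lacrimal genes 0 were above the 95th percentile of the controls on any array; the salivary amylase gene Amy1 read 4.73 in shNrf3-HFD, 5.63 in shCtrl-HFD, 6.37 in shNrf3-NC and 6.16 in shCtrl-NC, and the parotid secretory protein gene Bpifa2 read 3.16 to 3.71. Of 13 mammary genes 1 was above it, the xanthine oxidoreductase gene Xdh, which many tissues express. The milk protein genes Csn2 (3.0 to 4.08) and Wap (5.11 to 6.34) were not. Of 9 measured sebaceous and preputial gland genes 0 were above it. Of 12 renal tubule genes 1 was, the water channel Aqp1 at 9.45 in shNrf3-NC. In these tumors of a renal line 10 of the 12 read below the control median on every array. Of 7 pancreatic acinar genes 0 were above the 95th percentile of the controls on any array, and 4 read below the control median on every array.

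**Figure D4:**
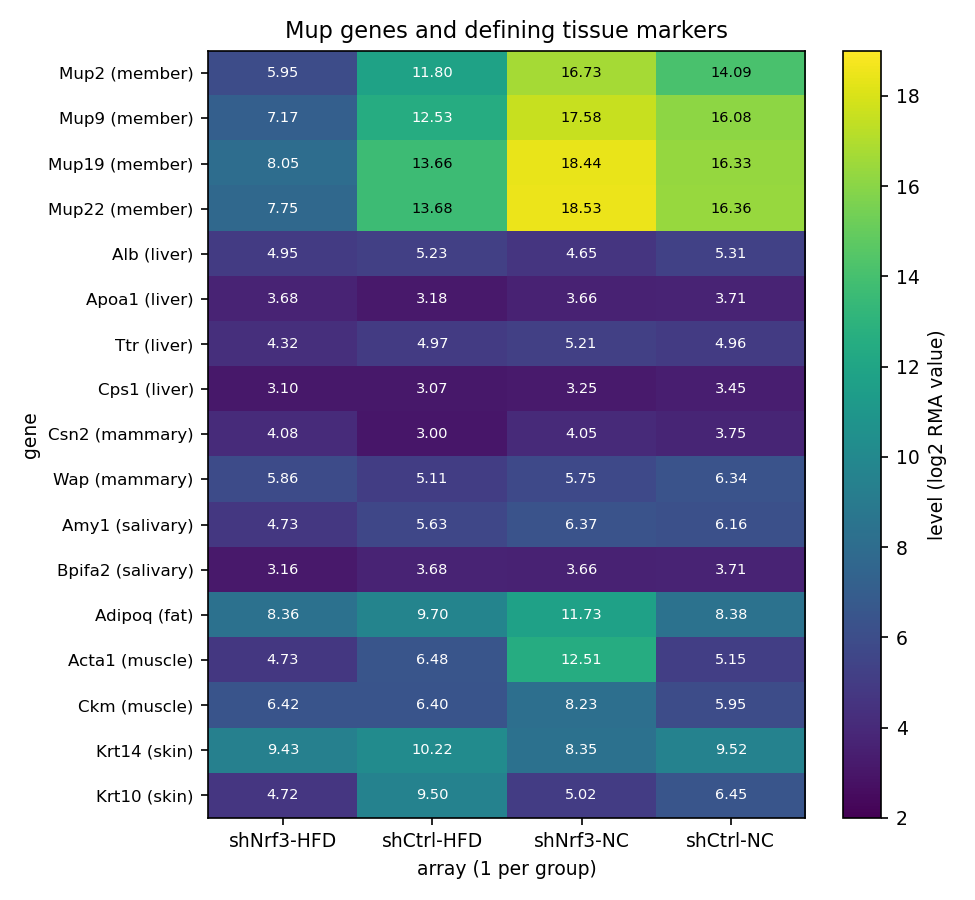
Levels (log2 RMA values, colour scale and printed numbers) of the 4 members and of defining markers of liver, mammary gland, salivary gland, fat, skeletal muscle and skin (rows) on the 4 arrays (columns); rows are to be read along the arrays and not against one another. Liver, mammary and salivary markers lie at 3.0 to 6.37 on every array, while Adipoq and Acta1 reach 11.73 and 12.51 in shNrf3-NC.

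Fat and muscle markers moved with part of the Mup pattern. Of 20 measured adipocyte markers 12 were higher by 1.5-fold or more in shNrf3-NC than in shCtrl-NC and 2 lower. The median difference was 0.90, and of all named genes 18.8% were higher and 18.9% lower. In shNrf3-HFD 0 of the markers were higher and 11 lower than in shCtrl-HFD (15.4% and 15.7% of all named genes were), with a median of -0.83. Both medians have the sign of the Mup differences. Adiponectin (Adipoq), a hormone of fat cells, read 8.36 in shNrf3-HFD, 9.70 in shCtrl-HFD, 11.73 in shNrf3-NC and 8.38 in shCtrl-NC. The lipid droplet gene Cidec read 8.31 in shNrf3-HFD, 10.15 in shCtrl-HFD, 11.27 in shNrf3-NC and 8.98 in shCtrl-NC. Both genes were above the 95th percentile of the controls only in shCtrl-HFD and shNrf3-NC. Of the 20 adipocyte markers 4 were above it on every array, and 6 read below the control median on every array. For diet with the control hairpin the adipocyte markers went the other way from the Mup genes. In shCtrl-HFD 12 were higher and 2 lower than in shCtrl-NC (20.9% and 19.2% of all named genes were). The median was 0.82 against the Mup median of -2.68. For diet with shNrf3 10 of 20 were lower and 2 higher (12.7% and 13.3% of all named genes were). The median was -0.58, or -1.40 over the list genes past the filter. The summed signal of the list was 15.67 in shNrf3-HFD, 16.56 in shCtrl-HFD, 17.35 in shNrf3-NC and 14.96 in shCtrl-NC on the log2 scale, a sum to which Scd1 and Fabp4 add most. By the sum the list was lowest in shCtrl-NC, while its median level was lowest in shNrf3-HFD (5.84 in shNrf3-HFD, 7.43 in shCtrl-HFD, 7.81 in shNrf3-NC and 6.61 in shCtrl-NC). The part of fat in the Mup differences was not tested. 

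Skeletal muscle markers were highest in the tumor labelled shNrf3-NC, where 7 of 20 were above the 95th percentile of the controls, against 0 in shNrf3-HFD, 1 in shCtrl-HFD and 1 in shCtrl-NC. Their summed signal was 9.97 in shNrf3-HFD, 10.97 in shCtrl-HFD, 14.21 in shNrf3-NC and 10.95 in shCtrl-NC on the log2 scale. Of 20 measured, 17 were higher and 0 lower in shNrf3-NC than in shCtrl-NC, with a median difference of 1.89 (3.50 over the genes past the filter), where 18.8% of all named genes were higher. In shNrf3-HFD 20 of 20 were lower than in shNrf3-NC, where 12.7% of all named genes were, with a median of -2.27 (-4.55 past the filter). For knockdown in HFD 1 was higher and 8 were lower (15.4% and 15.7% of all named genes were), with a median of -0.17 (-1.24 past the filter). Acta1 read 4.73 in shNrf3-HFD, 6.48 in shCtrl-HFD, 12.51 in shNrf3-NC and 5.15 in shCtrl-NC. For diet with the control hairpin, where the Mup median was -2.68, the muscle median was -0.03 (0.01 after quantile normalization, 0.32 past the filter). Skin markers had another order: 10 of 13 were lower in shNrf3-HFD than in shCtrl-HFD (15.7% of all named genes were lower) and 9 of 13 lower in shNrf3-NC than in shCtrl-NC (18.9% of all named genes were lower), with medians of -1.46 and -0.86. Their summed signal was 10.81 in shNrf3-HFD, 11.72 in shCtrl-HFD, 9.90 in shNrf3-NC and 10.62 in shCtrl-NC on the log2 scale. Krt10 read 4.72 in shNrf3-HFD, 9.50 in shCtrl-HFD, 5.02 in shNrf3-NC and 6.45 in shCtrl-NC. The part of muscle and skin in the Mup differences was not tested.

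Genes known to control Mup expression in mouse liver showed no common direction. Of 22 listed 20 were measured. The list's median differences were -0.16 and 0.02 for knockdown in HFD and in NC (0.55 in NC over the genes past the filter), and -0.08 and 0.17 for diet with shNrf3 and with shCtrl (0.37 with shCtrl past the filter). The growth hormone receptor gene Ghr read 12.46 in shNrf3-HFD, 12.43 in shCtrl-HFD, 12.39 in shNrf3-NC and 11.10 in shCtrl-NC. Its readings in shNrf3-HFD and shNrf3-NC were nearly level. Igf1, a growth hormone target that fibroblasts and macrophages also express, read 7.58 in shNrf3-HFD, 9.15 in shCtrl-HFD, 10.58 in shNrf3-NC and 8.78 in shCtrl-NC. Zhx2, a homeodomain factor that acts on Mup genes in mouse liver, read 10.28 in shNrf3-HFD, 9.10 in shCtrl-HFD, 10.44 in shNrf3-NC and 8.41 in shCtrl-NC, higher with shNrf3 in either diet while the Mup genes were lower with it in HFD. The hepatocyte factor Hnf4a read 2.53 to 4.18 and Ppara 3.50 to 5.35, below the control median on every array. The part of these regulators in the Mup differences was not tested. Male-biased liver genes, which share the growth hormone control of Mup genes, had 0 of 11 above the 95th percentile of the controls on any array, and female-biased ones 0 of 8. The complement gene C4a, with the largest difference of the male-biased list, read 5.72 in shNrf3-HFD, 6.77 in shCtrl-HFD, 8.13 in shNrf3-NC and 7.21 in shCtrl-NC, the order of arrays of the members at readings below the 95th percentile of the controls.

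The 10 named genes outside the family whose 4 centred values lay nearest to those of the members stood at distances of 4.10 to 5.43, against 0.56 or less for the members, so none followed the pattern at its full size. After Cyp2e1 came Serpinb2, a plasminogen activator inhibitor of macrophages and keratinocytes, at 4.42. It read 9.32 in shNrf3-HFD, 11.33 in shCtrl-HFD, 13.73 in shNrf3-NC and 14.01 in shCtrl-NC. The B cell chemokine gene Cxcl13 (4.53) read 6.74 in shNrf3-HFD, 8.69 in shCtrl-HFD, 12.89 in shNrf3-NC and 9.01 in shCtrl-NC. Cdo1 (4.68), the cysteine dioxygenase gene, which liver and fat express, read 5.03 in shNrf3-HFD, 7.22 in shCtrl-HFD, 9.29 in shNrf3-NC and 8.71 in shCtrl-NC. All of these were lowest in shNrf3-HFD. Prg4 (5.06), which encodes the joint lubricant lubricin, Saa3 (5.09), an acute phase gene of fat and macrophages, the myosin light chain gene Mylpf (5.26), the matrix proteoglycan decorin (Dcn, 5.32), the adipokine resistin (Retn, 5.34) and the serpin gene Serpina3n (5.43) completed the 10. Over the 4 arrays Pearson's r with the members' mean ran from 0.76 (Retn) to 0.999 (Serpina3n). With 4 points that share the same arrays a high r says little, and ranking by r instead of distance kept 1 of the 10 genes, Serpina3n.

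**Figure D5:**
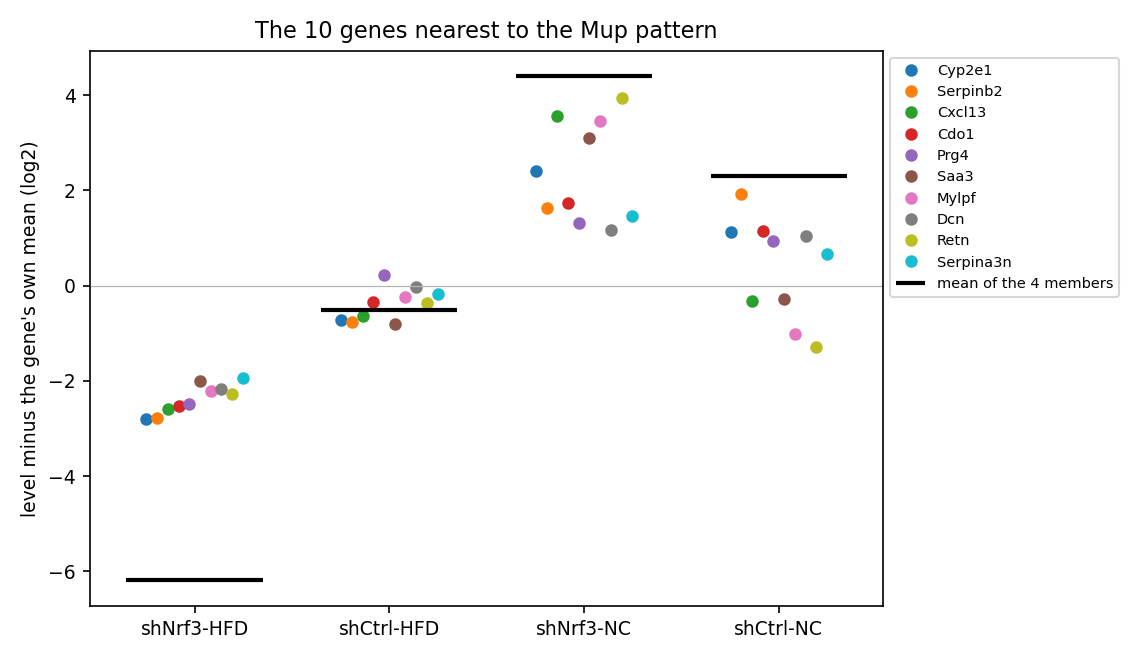
Levels minus each gene's own mean (log2, vertical axis) on the 4 arrays for the 10 genes nearest to the members (points) and for the mean of the 4 members (black bars). In each of the 10 genes the shNrf3-HFD point is lowest, and the members' bar lies lower still.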

How the data were processed

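From each sample 100 ng of total tumor RNA went onto 1 Affymetrix array, per the labels' protocols. RMA in Expression Console was the authors' route to the deposited log2 values, according to the submitters' processing notes. Neither a tool version nor a genome build is given in the sources used here. Of 28846 rows 22206 are transcript rows and 6640 controls (5222 negative). The platform annotation gives 1 symbol for 19572 rows and several for 0. For 55 genes with several rows the one with the highest mean was taken. All 9 Mup symbols matched RefSeq by Entrez ID. Of 229 list entries 209 were measured.

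Differences are shNrf3 minus shCtrl within a diet and HFD minus NC within a hairpin. With 1 array per group no test was made, and genes 2-fold or more apart (1.5-fold for lists) were counted. The code for fold counts and for the nearest-pattern search was checked on simulated data with large planted differences and little noise. That check covers the code only and does not show how far the counts or neighbours would repeat. Genes were named by a fixed rule: the members, the other Mup symbols, Nfe2l3, the 10 nearest genes, up to 4 genes per list with the largest difference and defining markers. Trf, Ghr, Cidec, Fabp4 and Orm1 fall outside that rule and were named after their values were seen. The neighbours Krt10 and Acta1 in rank were too. Members and lists were chosen with earlier results of these data known. Alternatives used limma 3.58.1 in R 4.3.3; the rest ran in Python 3.11.15 with pandas 2.3.3.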

Additional observations from a re-analysis of the deposited data

Results flagged for a closer look

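For each member the knockdown difference was below 0 in HFD and above 0 in NC. Taking the NC value from the HFD value gave -8.49 for Mup2, -6.86 for Mup9, -7.72 for Mup19 and -8.09 for Mup22 on the log2 scale. The shNrf3-HFD readings were not well above background, and with them set to the 95th percentile of the controls the values were -5.30 for Mup2, -4.90 for Mup9, -6.64 for Mup19 and -6.71 for Mup22. The 4 values come from the same 4 arrays and from near-identical genes, and the members were chosen with these differences known. With 1 array on each side the difference between diets was not tested.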

How the results depend on the processing

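With 1 array per group nothing here has a replicate check, and no array could be left out without losing its group. No paired analysis was possible because each group has 1 array. The median member differences kept their sign and stayed past 2-fold under loess, quantile normalization, centring and both floors for low readings: -5.76 to -3.96 for knockdown in HFD, 1.67 to 2.22 in NC, -10.64 to -8.88 for diet with shNrf3 and -3.12 to -2.61 with shCtrl. The smallest HFD values come from setting readings to the 95th percentile of the controls. Of 80 values of single members 79 also stayed past 2-fold, and Mup9 in NC was 0.99 after quantile normalization. The floor at the control median and the scaling of stepwise orders were chosen after seeing the data. Of 216 list medians under other settings 0 reversed one past 1.5-fold. Where the main median was under 1.5-fold, 72 moved by 0.1 or more and a further 14 newly passed 1.5-fold with the same sign. Medians past 1.5-fold in both settings were counted as the same whatever their shift. The muscle median in NC, for example, went from 1.892 to 3.502 over the list genes past the filter. Among all 216 list medians 30 had the opposite sign to a main median under 1.5-fold. Of these 30, 7 lay past 1.5-fold, all over list genes past the filter.

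Counts of genes past 2-fold followed the filter and the fold by construction. With no filter they were 1009 higher and 1021 lower for knockdown in HFD, a nearly even split, 1670 and 1303 in NC, 738 and 805 for diet with shNrf3 and 1776 and 1537 with shCtrl. Above the 75th percentile of levels they were 95 higher and 336 lower for knockdown in HFD, 836 and 175 in NC, 46 and 244 for diet with shNrf3 and 859 and 109 with shCtrl. At 4-fold they were 10 and 56 for knockdown in HFD, 205 and 20 in NC, 6 and 86 for diet with shNrf3 and 110 and 25 with shCtrl. For diet with shCtrl, loess gave 928 higher and quantile normalization 973 higher and 608 lower; the cause was not tested. Of the 10 nearest genes 10 were kept by loess and by centring, 9 by quantile normalization and 1 by correlation.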

Other observations

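Other lipocalin genes were mostly at background. Of 21 measured 15 read below the control median on every array. Lcn2, which binds bacterial iron carriers and is an acute phase gene, read 15.90 in shNrf3-HFD, 14.94 in shCtrl-HFD, 15.99 in shNrf3-NC and 14.11 in shCtrl-NC, high on all 4 arrays and higher with shNrf3 in either diet. Apod, a lipid carrier of fibroblasts and nerve sheath, read 6.99 in shNrf3-HFD, 9.75 in shCtrl-HFD, 9.77 in shNrf3-NC and 8.78 in shCtrl-NC, lowest in shNrf3-HFD as the Mup genes were. Rbp4, the retinol carrier of blood, read 5.48 in shNrf3-HFD, 6.22 in shCtrl-HFD, 7.03 in shNrf3-NC and 7.11 in shCtrl-NC, below the 95th percentile of the controls throughout. C8g was below the same percentile on every array. Its shNrf3 minus shCtrl difference was 0.967 in HFD and -1.175 in NC, both opposite in sign to the Mup genes. Its HFD minus NC difference was 0.36 with shNrf3, again opposite, and -1.782 with shCtrl, the sign of the Mup genes. Orm1, an acute phase plasma protein gene with smaller differences than these, was named after its values were seen. It read 6.16 in shNrf3-HFD, 6.18 in shCtrl-HFD, 7.14 in shNrf3-NC and 6.38 in shCtrl-NC. That is the order of arrays of the members, with small differences and below the same percentile.

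Genes of gluconeogenesis and hepatic glucose handling, on which MUP1 acts in mouse liver, had 0 of 7 measured members above the 95th percentile of the controls on any array. Pck1, which fat also expresses, read 6.09 in shNrf3-HFD, 7.62 in shCtrl-HFD, 6.35 in shNrf3-NC and 6.33 in shCtrl-NC.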
